A study of Homo sapiens with 24 samples.

Results

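The transcripts described here are 6 genes of the bile acid and FGF19 axis, BAAT, FGF19, FGFR4, KLB, SLC51A and SLC51B, measured in HepG2 cells, a human hepatoblastoma-derived line widely used as a hepatocyte model. They were taken by gene symbol from an Affymetrix whole-transcript array, where each of the 6 was represented by 1 probe set, among 14884 named genes and 53617 probe sets in all. The cells received 1 µM BRD8518, a compound given only as a code, or 100 ng/mL oncostatin M (OSM), a cytokine of the interleukin-6 family, or vehicle, and every group had 0.25% DMSO in the medium. Each BRD8518 array, those at 6 h included, is labelled 1 µM, but the protocol shared by all samples describes a range of doses at 6 h, so the 6 h dose rests on the array labels alone. The 24 arrays fall into 8 groups: BRD8518 at 1 h (n = 3), 6 h (n = 2) and 24 h (n = 3), OSM at 1 h (n = 3) and 24 h (n = 3), and DMSO at 1 h (n = 3), 6 h (n = 4) and 24 h (n = 3). The labels name no engineered allele, all groups come from 1 cell line, and no OSM array at 6 h was analysed here. Whether replicate arrays stem from independent cultures is not stated, and each p-value therefore covers array-to-array spread alone, possibly of technical origin.

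FGF19 is a hormone made in the ileum when bile acids return from the gut. On hepatocytes it binds the receptor tyrosine kinase FGFR4 together with the co-receptor β-Klotho, the product of KLB, and the signal represses bile acid synthesis. BAAT is the enzyme that joins bile acids to glycine or taurine before secretion, and SLC51A and SLC51B encode OSTα and OSTβ, the subunits of a transporter that lets bile acids leave the cell across the basolateral membrane.

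Treatment for 24 h moved the co-receptor most. KLB fell 2.90-fold with BRD8518 and 2.05-fold with OSM, both against DMSO at 24 h. BAAT moved in opposite directions: it rose 1.40-fold with BRD8518 and fell 1.85-fold with OSM at 24 h, and it had already risen 1.71-fold with BRD8518 at 6 h. SLC51A fell 1.44-fold with BRD8518 at 24 h, a call lost without 1 of the DMSO arrays. FGFR4 was lower on every treated array at 24 h than on every DMSO array without passing the test, and FGF19 passed it in no comparison.

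The promoters of KLB, BAAT and SLC51B are shown because these 3 genes were called between BRD8518 and OSM at 24 h. Each run holds the 250 bases before and 50 bases after an annotated start in RefSeq (GRCh38.p14), read 5′ to 3′ on the gene's strand, with motif matches in capitals. The KLB window is chr4:39406680-39406979 on the + strand, the BAAT window chr9:101383515-101383814 on the − strand, and the SLC51B window chr15:65045137-65045436 on the + strand.
KLB: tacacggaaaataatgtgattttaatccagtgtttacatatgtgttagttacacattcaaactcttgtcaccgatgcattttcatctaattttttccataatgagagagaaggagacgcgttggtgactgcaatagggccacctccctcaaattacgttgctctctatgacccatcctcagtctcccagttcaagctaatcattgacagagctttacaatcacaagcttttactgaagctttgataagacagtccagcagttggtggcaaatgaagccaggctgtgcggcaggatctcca
BAAT: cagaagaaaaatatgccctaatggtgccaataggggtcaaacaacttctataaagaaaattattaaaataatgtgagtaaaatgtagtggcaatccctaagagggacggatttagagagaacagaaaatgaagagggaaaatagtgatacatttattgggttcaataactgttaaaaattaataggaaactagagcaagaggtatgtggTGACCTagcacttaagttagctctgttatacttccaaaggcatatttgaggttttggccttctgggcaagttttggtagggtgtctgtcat
SLC51B: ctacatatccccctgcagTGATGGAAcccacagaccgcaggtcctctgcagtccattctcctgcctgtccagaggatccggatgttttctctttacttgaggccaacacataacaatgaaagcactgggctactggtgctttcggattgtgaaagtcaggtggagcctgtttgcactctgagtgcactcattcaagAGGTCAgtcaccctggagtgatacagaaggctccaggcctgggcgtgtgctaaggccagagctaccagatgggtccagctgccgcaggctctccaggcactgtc
The runs were searched on both strands for 6 motifs, with N standing for any base: an AP-1 site (TGANTCA), a CRE (TGACGTCA), a STAT site (TTCNNNGAA), an EGR1 site (GCGTGGGCG or GCGGGGGCG), a C/EBP-ATF composite (TGATGNAA) and a nuclear receptor hexamer (AGGTCA). The KLB window held no match. The BAAT window held a hexamer read on the opposite strand (TGACCT) 41 bases before the start. The SLC51B window held a hexamer 54 bases before the start and a C/EBP-ATF composite match (TGATGGAA) 232 bases before it. The hexamer is in 4857 and the composite in 1270 (3.62%) of 35116 promoters of this length, against shares of 7.71% for the AP-1 site, 1.85% for the CRE, 7.66% for the STAT site and 5.77% for the EGR1 site. RefSeq windows of SLC51A, FGFR4 (which has 2) and the other BAAT start held no match to any of the 6. The BAAT window shown is thus the one with a match.

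The deposited values are on the log2 scale after robust multi-array averaging (RMA), which gives no detection call. A level of one gene cannot be set against a level of another, because each probe set binds with its own strength. Over the 24 arrays FGF19 lay between 5.24 and 5.96 (median 5.57), SLC51A between 4.59 and 5.55 (median 5.06) and BAAT between 5.88 and 7.65 (median 6.92). SLC51B lay between 8.07 and 9.11 (median 8.37), KLB between 8.06 and 9.87 (median 9.50) and FGFR4 between 9.05 and 10.25 (median 9.41). KLB and BAAT thus covered the widest ranges within a gene. In the DMSO groups at 24 h and 1 h none of the 6 differed past the threshold (limma, 0 of 14884 genes called, 424 at an unadjusted p under 0.05). Of the 6, KLB alone had arrays that did not overlap between those DMSO groups, as for 9.59% of all genes.

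**Figure D1:**
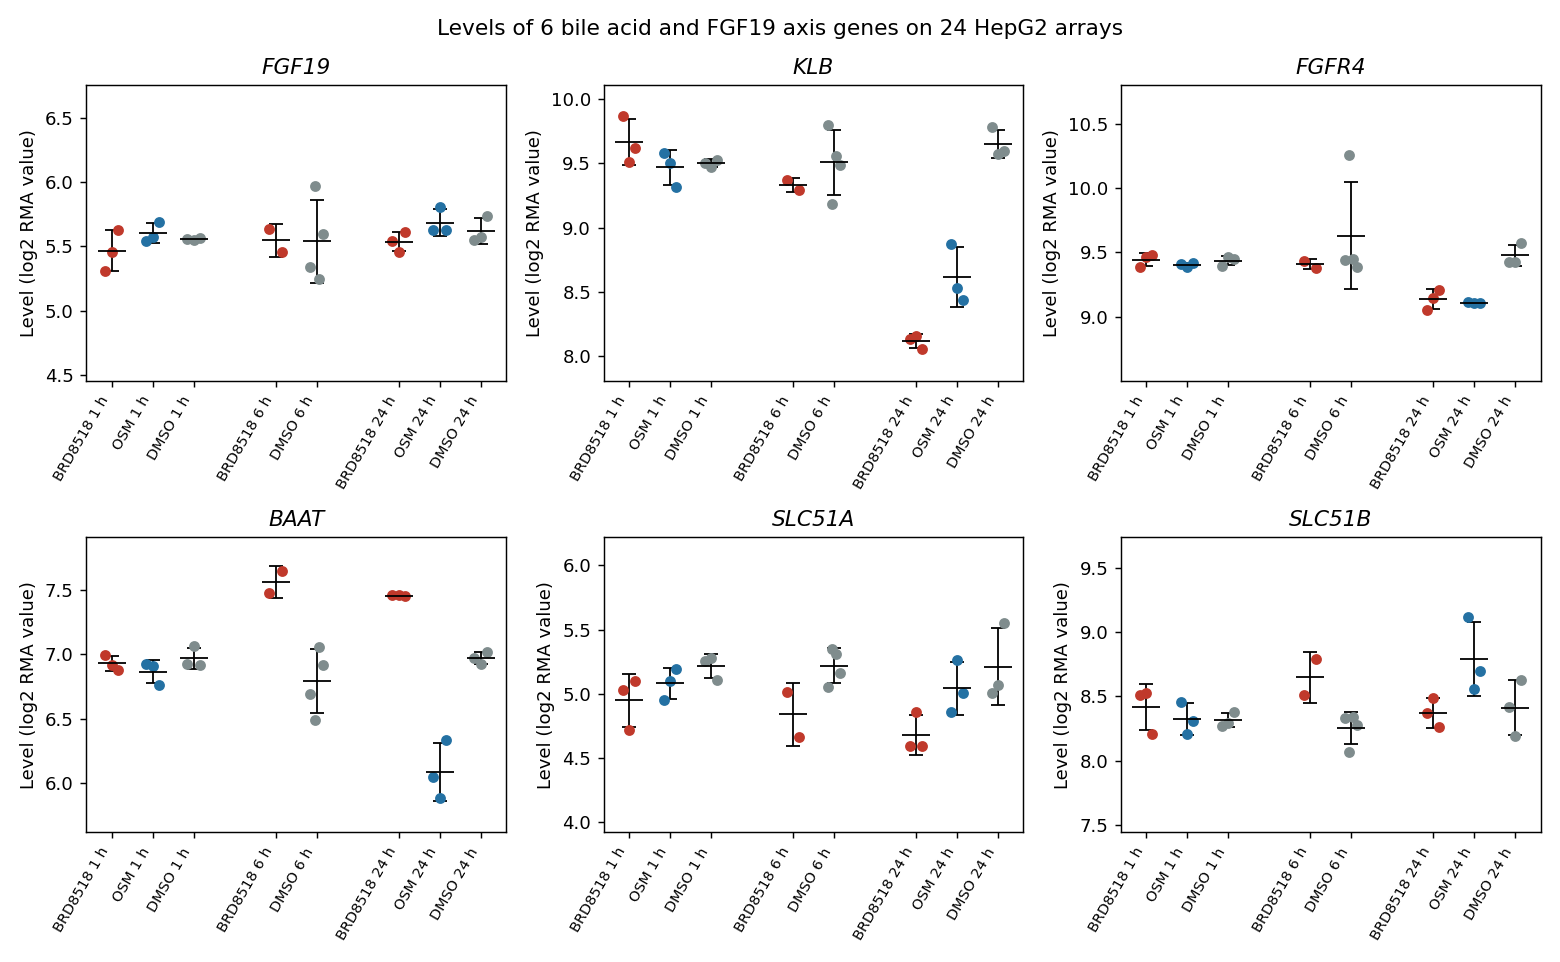
Levels of the 6 genes (log2 RMA value) on each of the 24 arrays, with BRD8518 in red, OSM in blue and DMSO in grey at 1, 6 and 24 h; bars mark the mean and SD, and all panels span the same number of log2 units. KLB is lowest on the BRD8518 arrays at 24 h (8.06 to 8.16), BAAT is high in BRD8518 at 6 and 24 h and low in OSM at 24 h, and FGFR4 has 1 DMSO array at 10.25.

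Replicates are numbered here in the order of the position codes in the array titles, within each group. One array stood apart. DMSO 6 h replicate 2 had a mean correlation of 0.977 with the other arrays of its group over the 14884 named genes. The value was 0.988 to 0.991 for those 3 arrays and at least 0.995 for every array of the other 7 groups. It gave the highest value of FGF19 (5.96) and of FGFR4 (10.25), and the lowest of SLC51B (8.07), over all 24 arrays. All 24 arrays shared 1 estimate of spread per gene, so this array also enters the tests at 1 h and 24 h, and calls of the 6 genes that change without it are given with both values.

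A gene is called where its Benjamini-Hochberg adjusted p over all 14884 genes is under 0.05 in limma. Of the 6 genes, 3 were called with BRD8518 at 24 h (1 higher, 2 lower), where 27.7% of all genes were called, 12.1% higher and 15.6% lower. With OSM at 24 h 2 were called, both lower, where 10.3% of all genes were called and 5.65% were called lower. With BRD8518 at 6 h 1 was called, higher, where 14.5% of all genes were called and 5.62% were called higher. At 1 h limma called 0 of the 6 with BRD8518 and 0 with OSM, where 0.255% and 2.84% of all genes were called, and 0 of the 6 had an unadjusted p under 0.05 in either comparison. The median change of the 6 genes at 24 h was -0.21 with BRD8518 and -0.27 with OSM, beside medians of -0.0049 and 0.0076 over all genes. With BRD8518 at 24 h the arrays of 4 of the 6 genes did not overlap those of DMSO, as for 44.2% of all genes, and with OSM at 24 h those of 3 of the 6 did not, as for 30.8%. The corresponding counts were 3 of 6 with BRD8518 at 6 h (27% of all genes), 1 of 6 with BRD8518 at 1 h (13.5%) and 0 of 6 with OSM at 1 h (22.7%).

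FGF19, the ligand, was called in no comparison. Its values of 5.24 to 5.96 lay above but near the array medians over all probe sets (4.89 to 4.95), and RMA gives no detection call. At 24 h it read 5.54, 5.46 and 5.61 with BRD8518, 5.62, 5.81 and 5.62 with OSM, and 5.55, 5.57 and 5.73 with DMSO. Both treated groups overlapped with DMSO, and the differences from DMSO were -0.08 (95% interval -0.35 to 0.19) with BRD8518 and 0.07 (-0.20 to 0.34) with OSM. At 6 h the difference was 0.01 (-0.28 to 0.29), with arrays at 5.64 and 5.45 in BRD8518 and at 5.34, 5.96, 5.24 and 5.60 in DMSO. At 1 h it was -0.09 (-0.36 to 0.18) with BRD8518 and 0.04 (-0.22 to 0.31) with OSM. In the order of the 8 group means, from OSM at 24 h (5.68) to BRD8518 at 1 h (5.46), every pair of neighbours overlapped.

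KLB, the co-receptor that gives FGFR4 its affinity for FGF19, was called lower under both treatments at 24 h. Its arrays read 8.14, 8.16 and 8.06 with BRD8518, 8.88, 8.53 and 8.44 with OSM, and 9.78, 9.58 and 9.60 with DMSO. No array of 1 group reached the values of another, and BRD8518 was the lowest group. The change was -1.53 ± 0.13 (log2, SE, adjusted p = 3.37e-09) with BRD8518 and -1.04 ± 0.13 (adjusted p = 5.14e-06) with OSM. In RNA from whole cultures, fewer cells of a kind and less of the transcript per cell cannot be told apart. Both calls held under all 17 alternative settings, with the change between -1.57 and -1.47 for BRD8518 and between -1.17 and -0.95 for OSM.

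At the earlier times KLB did not pass the test. With BRD8518 at 6 h it read 9.37 and 9.29, against 9.80, 9.19, 9.56 and 9.49 with DMSO, a difference of -0.18 (95% interval -0.46 to 0.11). At 1 h it read 9.87, 9.51 and 9.62 with BRD8518, 9.58, 9.51 and 9.32 with OSM, and 9.51, 9.47 and 9.53 with DMSO, and both treated groups overlapped with DMSO. The drop between times was tested directly as a difference of differences. The BRD8518 effect at 24 h was lower than that at 6 h by -1.36 ± 0.19 (adjusted p = 3.44e-05; 11.1% of all genes called, 5.12% lower) and lower than that at 1 h by -1.70 ± 0.18 (adjusted p = 4.58e-07; 17.5% called, 10.3% lower). The OSM effect at 24 h was lower than that at 1 h by -1.0 ± 0.18 (adjusted p = 0.00143; 3.37% called, 2.1% lower). In the order of group means the 6 groups from BRD8518 at 1 h (9.67) to BRD8518 at 6 h (9.33) each overlapped with their neighbour, and OSM at 24 h (8.62) and then BRD8518 at 24 h (8.12) stood clear below them.

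FGFR4, the receptor tyrosine kinase for FGF19 in liver, read 9.05, 9.15 and 9.20 with BRD8518 at 24 h, 9.11, 9.10 and 9.11 with OSM, and 9.43, 9.43 and 9.57 with DMSO. Every treated array lay below every DMSO array, and the treated groups overlapped with each other. The differences from DMSO were -0.34 ± 0.14 with BRD8518 (95% interval -0.64 to -0.05, adjusted p = 0.0828) and -0.37 ± 0.14 with OSM (-0.66 to -0.07, adjusted p = 0.122), neither of which passed. The SE comes from all 8 groups and takes in the DMSO 6 h array at 10.25, whose group otherwise read 9.44, 9.45 and 9.38. Without that array the same differences had an SE of 0.05 and adjusted p-values of 3.23e-05 and 4.58e-05. They also passed in fits of the compared groups alone (0.00805 and 0.00967) and with array weights (0.000244 and 0.000158). Of 17 alternative settings these 3 gave a call and 14 did not. With the letter of the position code as a fixed term the differences were -0.29 (95% interval -0.64 to 0.05) and -0.32 (-0.66 to 0.03). Without DMSO 24 h replicate 3 they were -0.29 (-0.63 to 0.04) and -0.32 (-0.66 to 0.02). At 24 h the letter term is set by that array alone, so the fits are not separate checks.

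**Figure D2:**
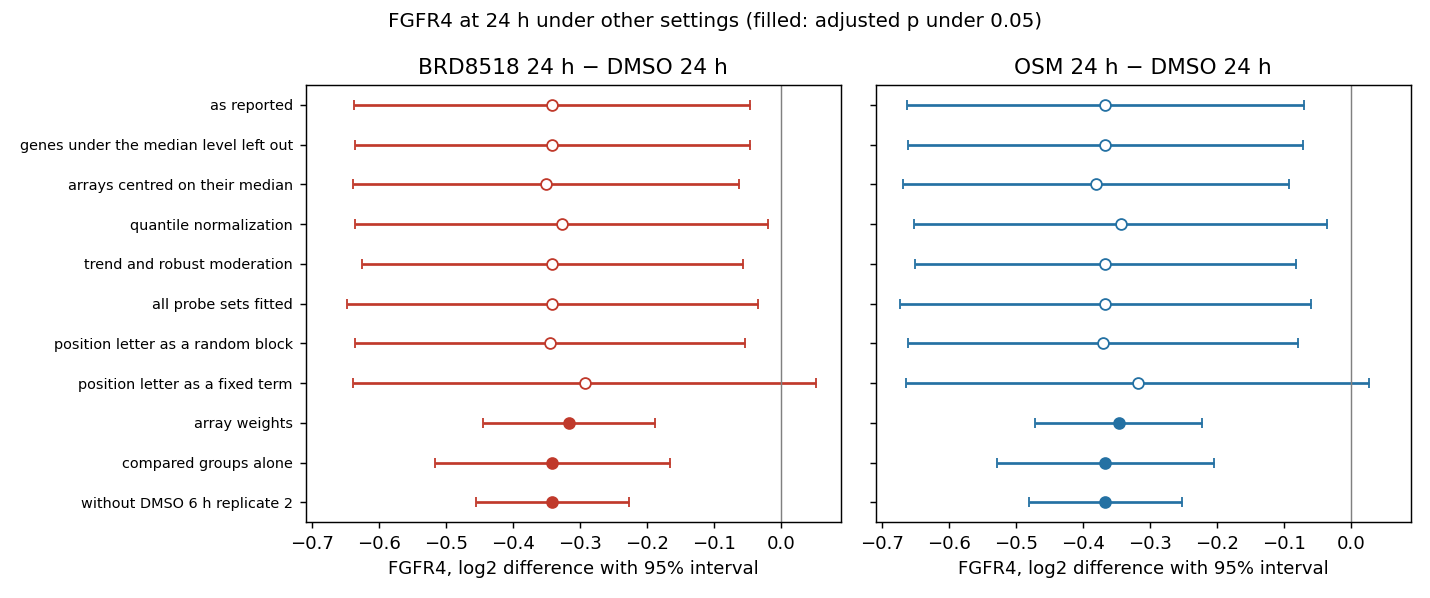
Difference of FGFR4 between treatment and DMSO at 24 h (log2, point with 95% interval) as reported and under other settings, with BRD8518 on the left and OSM on the right; filled points have an adjusted p under 0.05. The differences stay near -0.34 and -0.37 in most settings, and the intervals shrink where the DMSO 6 h array at 10.25 is left out or weighted down. With the position letter as a fixed term the differences are -0.29 and -0.32, and both intervals include 0. At 24 h that term is set by DMSO 24 h replicate 3 alone.

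At 6 h FGFR4 read 9.43 and 9.38 with BRD8518, against 9.44, 10.25, 9.45 and 9.38 with DMSO, and the groups overlapped. At 1 h the differences from DMSO were 0.01 (95% interval -0.29 to 0.30) with BRD8518 and -0.03 (-0.33 to 0.27) with OSM. BRD8518 and OSM differed at 24 h by 0.03 (-0.27 to 0.32). Between times, the BRD8518 effect at 24 h minus that at 1 h was -0.35 (adjusted p = 0.294), and the OSM effect at 24 h minus that at 1 h was -0.34 (adjusted p = 0.597). Without DMSO 6 h replicate 2 these 2 differences passed, at adjusted p-values of 0.00157 and 0.00811. With BRD8518, the effect at 24 h minus that at 6 h was -0.12 (adjusted p = 0.835) with that array and -0.33 (adjusted p = 0.00709) without it.

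BAAT, the conjugating enzyme, was called in opposite directions under BRD8518 and OSM at 24 h. With BRD8518 at 6 h it read 7.48 and 7.65, against 6.69, 6.49, 7.06 and 6.92 with DMSO. Both BRD8518 arrays lay above all 4 DMSO arrays, and the rise was 0.78 ± 0.12 (adjusted p = 0.000109). It was called under 15 of 16 alternative settings, and missed the threshold in a fit of these 6 arrays alone (adjusted p = 0.0594).

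At 24 h BAAT read 7.46, 7.46 and 7.45 with BRD8518, 6.05, 5.88 and 6.33 with OSM, and 6.97, 6.93 and 7.01 with DMSO. The 3 groups did not overlap: every BRD8518 array was above, and every OSM array below, the DMSO arrays. The rise with BRD8518 was 0.49 ± 0.12 (adjusted p = 0.00255) and the fall with OSM was -0.88 ± 0.12 (adjusted p = 1.19e-05), and both calls held under all 17 alternative settings. At 1 h BAAT read 6.99, 6.92 and 6.88 with BRD8518, 6.92, 6.91 and 6.76 with OSM, and 6.93, 7.06 and 6.92 with DMSO, and these groups overlapped.

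Tested between times, the BRD8518 effect on BAAT at 6 h exceeded that at 1 h by 0.81 ± 0.17 (adjusted p = 0.00473). Of all genes 6.01% were called there, 2.1% higher. The call was lost with the position letter as a fixed term, where the difference was 0.75. That fit rests on BRD8518 1 h replicate 1 alone for its group, since the other replicates have a letter of their own. The BRD8518 effect at 24 h exceeded that at 1 h by 0.52 ± 0.17 (adjusted p = 0.0303; 7.24% of all genes called higher), a call lost in 10 of 23 alternative settings, 8 of which leave out 1 array of the 4 groups involved. The effect at 24 h minus that at 6 h was -0.29 (95% interval -0.64 to 0.07, adjusted p = 0.358). The OSM effect at 24 h was lower than that at 1 h by -0.78 ± 0.17 (adjusted p = 0.00648). In the order of group means BRD8518 at 6 h (7.56) and at 24 h (7.46) came first and did not overlap, though their gap of 0.11 was smaller than the SD of 0.12 at 6 h. The 5 groups in the middle, from DMSO at 24 h (6.97) to DMSO at 6 h (6.79), overlapped with their neighbours, and OSM at 24 h (6.09) stood clear at the low end.

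SLC51A, the OSTα subunit, was lower on every BRD8518 array than on every DMSO array at each of the 3 times. Its values of 4.59 to 5.55 lay around the array medians over all probe sets (4.89 to 4.95), and RMA gives no detection call. At 1 h the arrays read 5.03, 4.72 and 5.10 with BRD8518 and 5.26, 5.28 and 5.11 with DMSO, a difference of -0.27 (95% interval -0.56 to 0.03, adjusted p = 1). At 6 h they read 5.01 and 4.67 with BRD8518 and 5.05, 5.35, 5.31 and 5.16 with DMSO, a difference of -0.38 (-0.69 to -0.06, adjusted p = 0.106). At 24 h they read 4.59, 4.86 and 4.59 with BRD8518 and 5.01, 5.07 and 5.55 with DMSO, and the fall of -0.53 ± 0.14 was called (adjusted p = 0.0064). The highest DMSO array at 24 h, replicate 3, is the only one of that group whose position code has a letter other than that of the BRD8518 arrays. Without it the change was -0.36 (adjusted p = 0.0698), and the call was lost. With the letter as a fixed term the change was likewise -0.36 (adjusted p = 0.0779). At 24 h that term is set by this array alone, so the fits are not separate checks. No difference between the times was called for SLC51A, with the effect at 24 h minus that at 6 h at -0.15 (-0.58 to 0.28).

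With OSM, SLC51A read 4.86, 5.26 and 5.00 at 24 h and overlapped with DMSO (-0.17, 95% interval -0.46 to 0.13). At 1 h it read 4.95, 5.10 and 5.19 and overlapped as well (-0.13, -0.43 to 0.16). In the order of group means, from DMSO at 6 h (5.22) to BRD8518 at 24 h (4.68), every pair of neighbours overlapped.

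SLC51B, the OSTβ subunit, passed the test in no comparison with DMSO. With BRD8518 at 6 h it read 8.51 and 8.79, against 8.33, 8.07, 8.34 and 8.28 with DMSO. Both BRD8518 arrays lay above all 4 DMSO arrays, with a difference of 0.39 ± 0.14 (adjusted p = 0.0683). At 24 h it read 8.37, 8.49 and 8.26 with BRD8518, 9.11, 8.56 and 8.70 with OSM, and 8.42, 8.195 and 8.63 with DMSO. The OSM and DMSO arrays overlapped, with a difference of 0.38 ± 0.13 (adjusted p = 0.081) that passed under 6 of 17 alternative settings. One of these is the fit without DMSO 6 h replicate 2, where the difference was 0.38 (adjusted p = 0.0486). The BRD8518 arrays differed from DMSO by -0.04 (95% interval -0.32 to 0.24). At 1 h the differences from DMSO were 0.10 (-0.17 to 0.38) with BRD8518 and 0.01 (-0.27 to 0.29) with OSM. In the order of group means OSM at 24 h (8.79) and BRD8518 at 6 h (8.65) came first, and every pair of neighbours overlapped down to DMSO at 6 h (8.26).

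**Figure D3:**
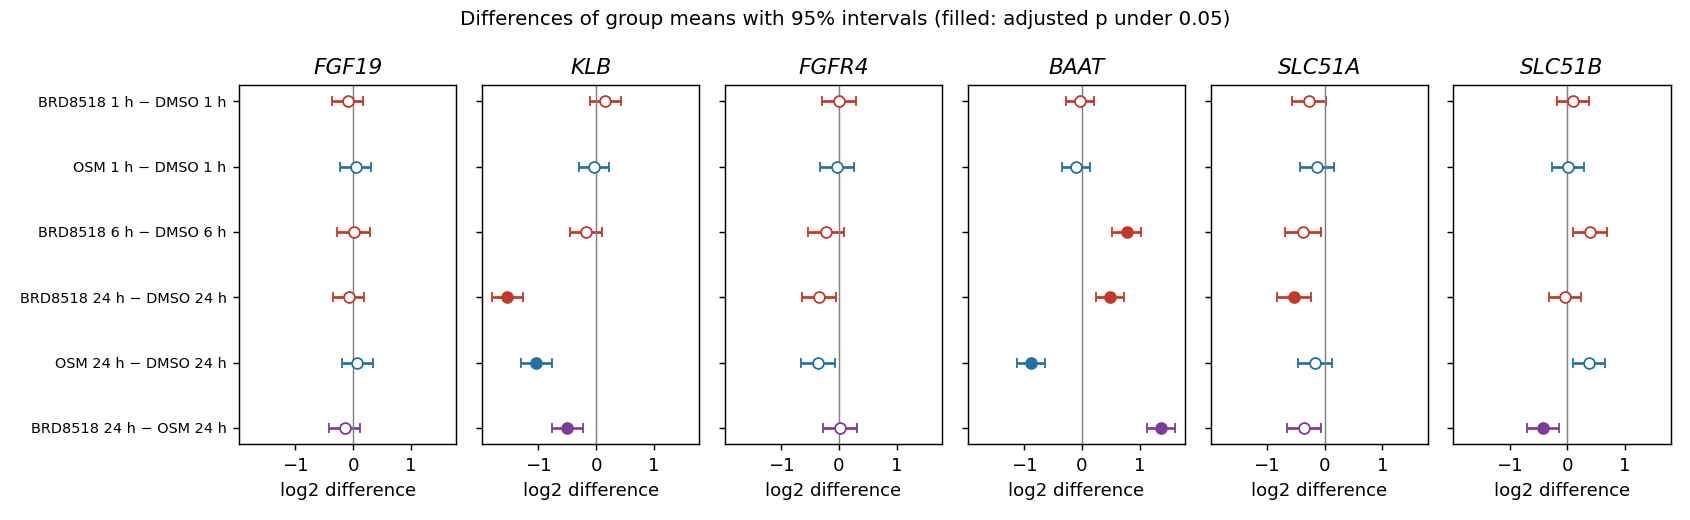
Differences between group means of the 6 genes (log2, point with 95% interval), with comparisons against DMSO in red for BRD8518 and blue for OSM and BRD8518 minus OSM at 24 h in purple; filled points have an adjusted p under 0.05. KLB lies at -1.53 and -1.04 at 24 h, BAAT at 0.49 and -0.88, and the interval of FGF19 includes 0 throughout.

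BRD8518 and OSM were also compared with each other at both times they share. At 24 h 3 of the 6 genes were called (1 higher, 2 lower with BRD8518), where 23.2% of all genes were called, 10.9% higher and 12.3% lower, and the arrays of 5 of the 6 did not overlap, as for 43.4% of all genes. BAAT was higher with BRD8518 by 1.37 ± 0.12 (adjusted p = 8.02e-09), a 2.59-fold difference, under all 17 alternative settings. KLB was lower with BRD8518 by -0.50 ± 0.13 (adjusted p = 0.00572). That call was lost without OSM 24 h replicate 1, the highest OSM array at 8.88, where the difference was -0.37 (adjusted p = 0.0577).

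SLC51B was lower with BRD8518 than with OSM at 24 h by -0.42 ± 0.13 (adjusted p = 0.0251), and this call was lost in 5 of 17 alternative settings. Without OSM 24 h replicate 1, which had the highest SLC51B value of all arrays at 9.11, the difference was -0.25 (adjusted p = 0.21). It also missed the threshold without BRD8518 24 h replicate 1 (adjusted p = 0.0629) and without BRD8518 24 h replicate 3 (adjusted p = 0.109). SLC51A differed by -0.36 ± 0.14 (adjusted p = 0.0723), which passed under 5 of 17 alternative settings, and FGF19 by -0.15 (95% interval -0.42 to 0.12). At 1 h limma called 0 of the 6, where 2.34% of all genes were called, and 0 had an unadjusted p under 0.05. The arrays of all 6 overlapped at 1 h, where those of 20.2% of all genes did not.

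Other genes of the pathway were read from 4 lists, of which the value table used here named only some members. The first list holds 17 genes of bile acid synthesis and conjugation, of which 2 were measured, ACOT8 and HSD17B4. HSD17B4, a peroxisomal enzyme that shortens the bile acid side chain, fell by -0.65 ± 0.08 with BRD8518 (adjusted p = 9.09e-07) and by -0.45 ± 0.08 with OSM (adjusted p = 0.000373) at 24 h. ACOT8, a peroxisomal thioesterase, was called in no comparison with DMSO. None of the 18 genes on the list of other bile acid and bile lipid transporters is analysed here.

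Of 16 nuclear receptors and transcription factors tied to bile acid control, 5 were measured. With BRD8518 2 were called higher and 2 lower at 6 h, and 1 each way at 24 h, while OSM had 1 each way at 1 h and none of the 5 at 24 h. Over all genes the shares called were 14.5% and 27.7% with BRD8518 at 6 h and 24 h, and 2.84% and 10.3% with OSM at 1 h and 24 h, so 2 of 5 with BRD8518 at 24 h lies near the general share. MAFG, a small MAF protein that represses bile acid synthesis genes in mouse liver, rose by 1.00 ± 0.14 at 6 h and 0.72 ± 0.13 at 24 h with BRD8518. Its differences with OSM were 0.42 ± 0.13 at 1 h (adjusted p = 0.115) and 0.16 ± 0.13 at 24 h (adjusted p = 0.582), and the 1 h difference passed without DMSO 6 h replicate 2 (adjusted p = 0.00402). PPARA, a fatty acid-activated nuclear receptor, fell by -0.46 ± 0.11 at 6 h and -0.37 ± 0.11 at 24 h with BRD8518. The 6 h call of PPARA was lost without BRD8518 6 h replicate 2 (-0.32, adjusted p = 0.228), and the 24 h call reached an adjusted p of 0.05 without DMSO 24 h replicate 1. FOXO1, a target of insulin signalling, rose with OSM at 1 h (0.45 ± 0.08) and with BRD8518 at 6 h (0.47 ± 0.08), the second of which missed the threshold in a fit of the compared groups alone (adjusted p = 0.0594). FOXA2, a liver pioneer factor, fell with OSM at 1 h (-0.34 ± 0.06), and its change of -0.21 ± 0.07 with BRD8518 at 6 h lost its call when any of 5 of the 6 arrays compared was left out.

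Of 22 FGF receptors, ligands and downstream signalling genes, 16 were measured. The number called higher was 2 with BRD8518 at 1 h, 3 at 6 h and 4 at 24 h, and 3 with OSM at each time. Called lower were 0, 2 and 2 with BRD8518 at those times, and 0 and 3 with OSM at 1 h and 24 h. The shares of all genes called in either direction were 0.255%, 14.5% and 27.7% with BRD8518 at those times, and 2.84% and 10.3% with OSM. By direction, 5.62% of all genes were called higher with BRD8518 at 6 h, and 12.1% higher and 15.6% lower at 24 h. With OSM at 24 h 5.65% were called lower. DUSP6, the phosphatase that inactivates ERK, and SPRY4, a Sprouty inhibitor of receptor tyrosine kinase signalling, were called higher in all 5 comparisons. SPRY4 rose by 0.54 ± 0.08, 1.79 ± 0.09 and 1.55 ± 0.08 with BRD8518 at 1, 6 and 24 h, and by 1.25 ± 0.08 and 0.74 ± 0.08 with OSM at 1 h and 24 h. DUSP6 rose by 0.81 ± 0.08, 0.90 ± 0.08 and 0.91 ± 0.08 with BRD8518 at 1, 6 and 24 h, and by 1.35 ± 0.08 and 0.78 ± 0.08 with OSM at 1 h and 24 h. The BRD8518 call of SPRY4 at 1 h was lost with the position letter as a fixed term, where the difference was 0.50. That fit rests on BRD8518 1 h replicate 1 alone for its group, since the other replicates have a letter of their own.

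GAB1, an adaptor between receptor kinases and their effectors, fell with BRD8518 at 24 h (-0.56 ± 0.13) and with OSM at 24 h (-0.97 ± 0.13). Its fall with BRD8518 at 6 h (-0.55 ± 0.14) and that of the exchange factor SOS1 (-0.73 ± 0.18) both lost their calls without BRD8518 6 h replicate 2, at adjusted p-values of 0.0857 and 0.2. SHC1, another adaptor, rose at 24 h by 0.48 ± 0.07 with BRD8518 and 0.63 ± 0.07 with OSM. SPRY2, a second Sprouty gene, rose with BRD8518 at 6 h (0.58 ± 0.10) and with OSM at 1 h (0.48 ± 0.09), and fell with OSM at 24 h (-0.40 ± 0.09). Its OSM call at 1 h was lost in a fit of the compared groups alone (adjusted p = 0.0556). GRB2 fell with BRD8518 at 24 h (-0.29 ± 0.08), and FGFR1 with OSM at 24 h (-0.36 ± 0.07). FGF21, a hormone that also needs β-Klotho as its co-receptor and was picked out after its values were seen, rose with BRD8518 at 24 h by 0.41 ± 0.11 (adjusted p = 0.00696). FGF21 averaged 5.26 with BRD8518 and 4.84 with DMSO at 24 h, where array medians over all probe sets were 4.89 to 4.95. Its difference with OSM at 24 h was 0.17 ± 0.11 (adjusted p = 0.452).

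**Figure D4:**
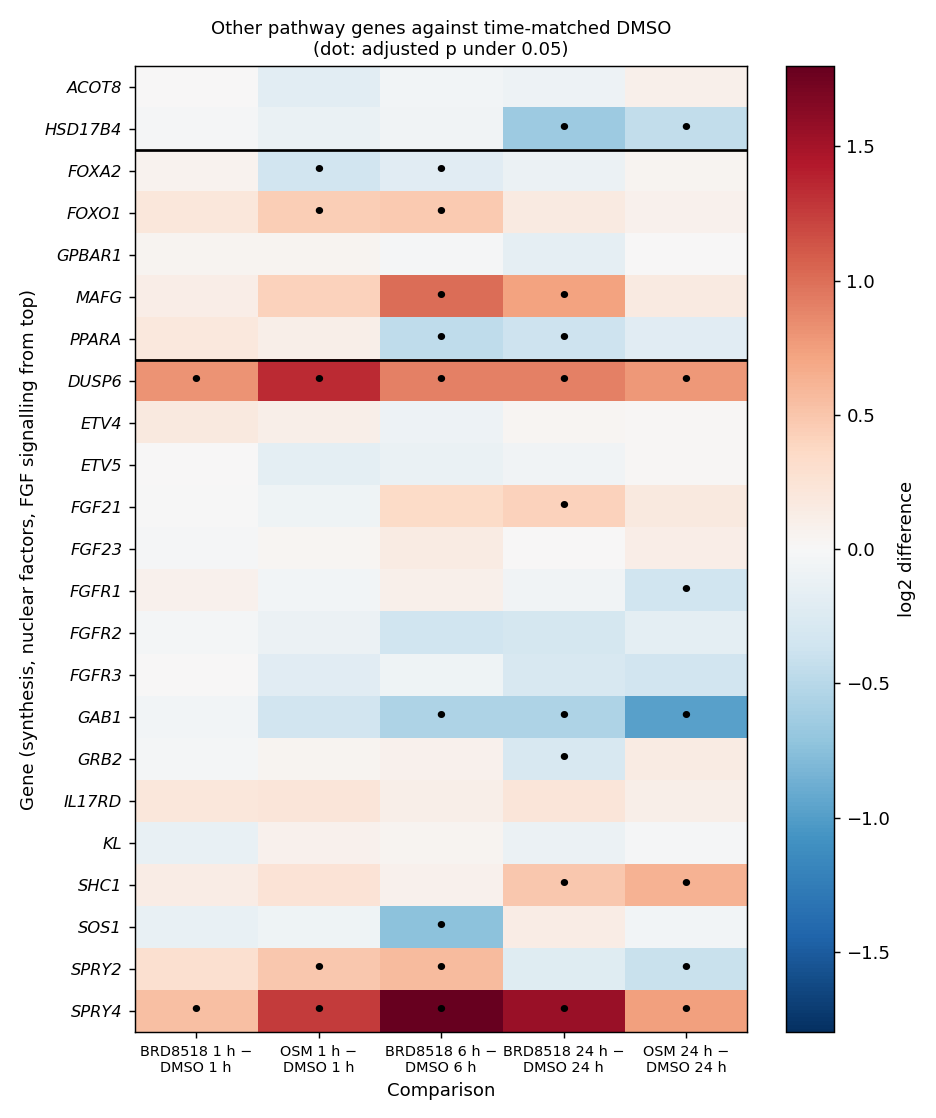
Differences from DMSO (log2) of the measured genes on the pathway lists, by treatment and time, with colour for the difference and a dot for an adjusted p under 0.05. SPRY4 and DUSP6 are higher in all 5 comparisons, HSD17B4 and GAB1 are lower at 24 h with both treatments, and MAFG is higher with BRD8518 at 6 h and 24 h.

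The genes most like a member across the 24 arrays were found by Pearson correlation, given as a description, since arrays of 1 group share their treatment. For KLB they were ONECUT1 (r = 0.98), a liver transcription factor, F11 (0.98), coagulation factor XI, and TMT1A (0.97). ONECUT1 changed by -2.22 ± 0.14 with BRD8518 and -1.34 ± 0.14 with OSM at 24 h, F11 by -1.39 ± 0.12 and -0.95 ± 0.12, and TMT1A by -2.39 ± 0.14 and -1.84 ± 0.14. For BAAT they were CTSH (0.91), a lysosomal cathepsin, WEE1 (0.91), a cell cycle kinase, and SSUH2 (0.91). WEE1 rose by 1.39 ± 0.10 at 6 h and 0.82 ± 0.10 at 24 h with BRD8518, and fell by -0.68 ± 0.10 with OSM at 24 h. For SLC51A the values were lower: POFUT1 (0.83), VCP (0.81) and SPG7 (0.80).

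Markers of the labelled cell type were present throughout, with ALB between 12.13 and 12.54, APOB between 12.42 and 12.66 and AFP between 11.42 and 11.97 on the 24 arrays. Of these 3, AFP was called lower at 24 h under both treatments, and ALB and APOB were called under neither. Of 10 hepatocyte and HepG2 markers 8 were measured, and at 24 h 6 were called lower with BRD8518, where 15.6% of all genes were called lower, and 5 lower and 1 higher with OSM, where 10.3% of all genes were called and 5.65% lower. Their summed log2 level was 86.3 to 87.3 with BRD8518, 89.0 to 89.8 with OSM and 90.0 to 90.4 with DMSO. TTR, the thyroxine carrier transthyretin, fell by -0.75 ± 0.07 with BRD8518 and -0.46 ± 0.07 with OSM. FGB, the acute-phase fibrinogen β chain, rose by 1.51 ± 0.10 with OSM and was called lower with BRD8518. The BRD8518 change of FGB was between -0.45 and -0.37 under 17 alternative settings. The part of these shifts in the falls of KLB and BAAT was not tested.

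Markers of other cell types gave mixed values at 24 h. Over all genes 12.1% were called higher and 15.6% lower with BRD8518 at 24 h. With OSM at 24 h 10.3% of all genes were called, 5.65% lower. Of 4 biliary markers 1 was called higher with BRD8518 (KRT19, 0.97 ± 0.10) and 1 with OSM (SOX9, 0.21 ± 0.06, a call lost without OSM 24 h replicate 2 or 3 or DMSO 24 h replicate 3), with summed levels of 32.9 to 33.2 with BRD8518, 32.4 to 33.1 with OSM and 32.4 to 32.5 with DMSO. Of 4 macrophage markers CD68 was higher with both (1.19 ± 0.08 and 0.34 ± 0.08) and CD14 with OSM (0.74 ± 0.14), while CD163 and MARCO were not called. Their summed levels were 23.9 to 24.0 with BRD8518, 23.4 to 24.2 with OSM and 22.9 to 23.1 with DMSO. Of 2 measured intestinal markers VIL1 was lower with both (-0.59 ± 0.07 and -0.48 ± 0.07), at sums of 14.6 to 14.8 with BRD8518, 14.70 to 14.99 with OSM and 15.2 to 15.4 with DMSO. The only stellate marker measured, DCN, lay between 2.19 and 2.57 on all arrays, and of 3 endothelial markers PECAM1 was lower with OSM (-0.43 ± 0.10), at sums of 14.4 to 15.1 with BRD8518, 14.4 to 14.5 with OSM and 14.65 to 14.95 with DMSO. RMA values have no true 0, so no marker can be called absent, and the part of these shifts in the results above was not tested.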

How the data were processed

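Gene expression was measured on 24 Affymetrix whole-transcript arrays of HepG2 cells. The authors deposited log2 values from RMA, for which the submitters' processing notes name oligo. Versions, array annotation and genome build: not given in the sources used here. Values ran from 0.913 to 13.7 and were used as deposited. Arrays have no read depth, and the number of arrays limits the precision.

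Of 53617 probe sets, 16098 had 1 gene name and 37519 had none or several and were left out. For the 779 genes with several probe sets the one with the highest mean was kept. All 24 arrays were fitted with 1 mean per group in limma 3.58.1 (R 4.3.3), with empirical Bayes moderation (5.3 prior and 21.3 total degrees of freedom) and Benjamini-Hochberg adjustment over 14884 genes within each of 12 comparisons. Intervals are 95%. The fit was tested on simulated data. Figures used Python 3.11.15 and matplotlib 3.10.9. Promoters came from RefSeq (GRCh38.p14).

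The members, lists and alternatives were chosen with earlier results of these data known. All members are named, with up to 3 genes per list, comparison with DMSO and direction, and the 3 genes most correlated with each member called against DMSO. FGF21 was added after its values were seen. Alternatives changed the genes fitted, the scaling, the moderation, the arrays, the weights, the probe sets and the use of the letter in the position code, whose meaning the labels do not state. One alternative averages a gene's probe sets. It cannot alter the change of any of the 6 members, which have 1 probe set each, though it is counted among their settings.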

Additional observations from a re-analysis of the deposited data

Results flagged for a closer look

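FGFR4 had 1 array far from the other 3 of its group: DMSO 6 h replicate 2 read 10.25, against 9.38 to 9.45 on the other DMSO 6 h arrays, a gap of 0.925 of the group's range. The limit that picked it out, Dixon's 95% critical value, is passed by chance in about 1 in 20 groups. It was applied to groups of 4 arrays alone, so DMSO 6 h was the only group examined, for each of the 6 genes. The same array also had the lowest correlation with its group over all named genes.

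Treatment effects that differed between times, by the test of that difference in limma, were found for KLB and BAAT. For KLB the BRD8518 effect at 24 h minus that at 6 h was -1.36, the BRD8518 effect at 24 h minus that at 1 h was -1.70, and the OSM effect at 24 h minus that at 1 h was -1.0. For BAAT the BRD8518 effect at 6 h minus that at 1 h was 0.81, the BRD8518 effect at 24 h minus that at 1 h was 0.52, and the OSM effect at 24 h minus that at 1 h was -0.78. The letter of the position code differs between the times, except that DMSO 24 h replicate 3 shares its letter with arrays at 1 h.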

How the results depend on the processing

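No change of a member turned direction past the threshold. Of 1350 single-gene values under alternative settings, 1304 kept their side of the threshold, 20 lost their call and 26 gained one. Most of the 1350 belong to genes not called in that comparison, which had no call to lose. The losses were most frequent for the BRD8518 effect on BAAT at 24 h minus that at 1 h (10 of 23 settings). Next came SLC51B between BRD8518 and OSM at 24 h (5 of 17). The calls of KLB at 24 h under both treatments and of BAAT at 24 h under both treatments held throughout.

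Counts of called members that moved by over 1.5 times are given first. With BRD8518 at 6 h, 1 became 2 with low genes left out and 0 in a fit of the compared groups alone. With OSM at 24 h, 2 became 4 with array weights, and the fits without 1 array gave 2 to 4, the highest without DMSO 6 h replicate 2. The BRD8518 effect at 24 h minus that at 6 h had 1, against 2 with array weights and 1 to 2 without 1 array. The BRD8518 effect at 24 h minus that at 1 h had 2, against 1 with all probe sets fitted, 1 with the position letter as a fixed term and 1 to 3 without 1 array. For the BRD8518 effect at 6 h minus that at 1 h there was 1, against 0 with the letter as a fixed term. Smaller moves were 2 to 4 around 3 for BRD8518 against DMSO and for BRD8518 against OSM at 24 h, and 2 to 3 around 2 for the OSM effect at 24 h minus that at 1 h. The cause was not tested. For BRD8518 effects set against 1 h, the letter term leaves BRD8518 1 h replicate 1 alone to stand for its group, which limits those counts. No paired analysis was possible because the labels carry no replicate numbers of their own. Those used here follow the order of the position codes and link no arrays across groups.

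BRD8518 at 6 h has 2 arrays, every array at 6 h shares a letter of its position code with no array at another time, and RMA values give no signal over background.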
